A study of Mus musculus with 8 samples.

Results

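The 10 genes described here, chosen by gene name out of 54532 in the deposited table, are Phgdh, Psat1 and Psph of serine synthesis, Shmt1, Shmt2, Mthfd2 and Mthfd1l of folate metabolism, Asns, Atf4 and Ddit3. Ddit3 has 2 rows in the table, and the short one, listed at 0 in all libraries, was left aside. The genes were put together with values of the TG against WT comparison known, so for them that comparison is a description, and no p-value is given; counts of them past a threshold describe them only.

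Serine can be made from the glycolytic intermediate 3-phosphoglycerate by PHGDH, PSAT1 and PSPH in turn, and SHMT enzymes then pass a carbon from serine to folate. The folate enzymes carry this carbon through the mitochondrion and the cytosol for the synthesis of purines, thymidylate and methionine. ATF4 is a transcription factor of amino acid shortage and of mitochondrial and endoplasmic reticulum stress; it is produced mainly by control of translation, and genes of serine synthesis, one-carbon metabolism and asparagine synthesis are among its known targets.

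RNA of brown fat, the tissue that burns lipid to warm the mouse, was sequenced in 4 mice labelled TG (CLCF1-ATG) and 4 WT mice, which bear the numbers 1, 2, 3 and 5 in each group. CLCF1 is a secreted cytokine related to interleukin-6, and the series' title places the study in the question of how it acts on mitochondria and heat production of brown fat. The sources used here do not give the promoter that drives the transgene, the strain, the age or any treatment of the mice. Values are FPKM, reads divided by gene length and by a divisor of each library, as the authors deposited them. Each log2 change is the TG mean minus the WT mean of log2(FPKM + 1), a scale on which the changes of low genes come out too small, and SE is the standard error of that change in the limma fit over all tested genes.

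FPKM times gene length was divided by its smallest positive value in each library, taken as 1 read. This gave whole numbers, the recovered reads, which numbered 18494022 to 20183840 per TG library and 13734231 to 15751302 per WT library. Clcf1 averaged 84.5 ± 4.75 FPKM in TG and 2.15 ± 1.28 FPKM in WT (SD, n = 4 each; exact permutation, two-sided, p = 0.0286, the least that 4 against 4 can give), so all 8 libraries followed their labels. Mitochondrial transcripts took 6.87% ± 0.547 of the reads in TG and 29.4% ± 5.78 in WT. The recovered reads came to 0.822 to 0.883 of the divisor implied by the deposited values in TG, and to 1.02 to 1.22 in WT. Division by all recovered reads, which replaces that divisor, gave all tested genes a median log2 change of 0.32, against 0.01 as deposited. A rescaling that left out the reads of mitochondrial genes, of haemoglobin genes and of the 20 genes with the highest mean FPKM gave a median of 0.14. Beside the marker counts below, the limma test called 22.3% of all tested genes higher in TG and 21.8% lower. Of 8 brown adipocyte markers 7 were lower in TG by the limma test and Elovl3 did not pass, and their summed level ran from 624 to 1036 FPKM in TG and from 6970 to 9868 FPKM in WT; none was at 0 in every library. All 7 endothelial markers were lower, with sums of 21.3 to 39.6 FPKM in TG and 119 to 272 FPKM in WT, while 5 of 7 pan-adipocyte markers were higher (20492 to 31884 FPKM in TG and 7539 to 9448 FPKM in WT). Of 8 macrophage markers 5 were higher (362 to 440 FPKM in TG and 211 to 352 FPKM in WT), and of 7 fibroblast and preadipocyte markers 3 were higher and 1 was lower (565 to 690.0 FPKM in TG and 212 to 276 FPKM in WT). Of 14 genes of cycling cells 7 were tested and 1 was higher, Mcm4, with sums of 33.8 to 35.9 FPKM in TG and 29.4 to 38.4 FPKM in WT. Skeletal muscle markers (0 of 7 called; 150 to 1503 FPKM in TG and 41.6 to 2655 FPKM in WT), neutrophil markers (1 higher and 3 lower of 4 tested; 192 to 268 FPKM in TG and 16.9 to 379 FPKM in WT), T and B cell markers (0 of 3 tested called; 1.66 to 16.1 FPKM in TG and 1.54 to 4.91 FPKM in WT) and liver and kidney markers (1 tested, higher; 86.1 to 386 FPKM in TG and 62.0 to 122 FPKM in WT; Umod at 0 in all) were also summed. In such bulk tissue fewer cells of a type and less RNA per cell cannot be told apart, and the part of these markers in the results below was not tested.

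Among the 10 genes, Phgdh, Psat1 and Asns were higher in TG, and Atf4, Ddit3 and Shmt1 were lower. By count, 6 lay past the adjusted p of 0.05 used for all genes and the other 4 did not. Of all 12508 tested genes 44.1% passed in either direction, 22.3% higher and 21.8% lower (2788 and 2725 genes). The split was 5536 higher and 1442 lower with division by all recovered reads, and 3790 and 2150 with the rescaling without abundant genes. The values of the TG and WT libraries did not overlap for 7 of the 10, the 6 above and Mthfd2, beside 42.6% of all tested genes. Since the genes were chosen on this comparison, nothing is read from these counts. The median log2 change was 0.21 over the 10 genes and 0.01 over all tested genes. All 10 passed the filter of 0.5 FPKM in at least 4 libraries; 9 reached it in all 8 libraries, and Mthfd1l in 4 of them, 2 in each group.

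**Figure D1:**
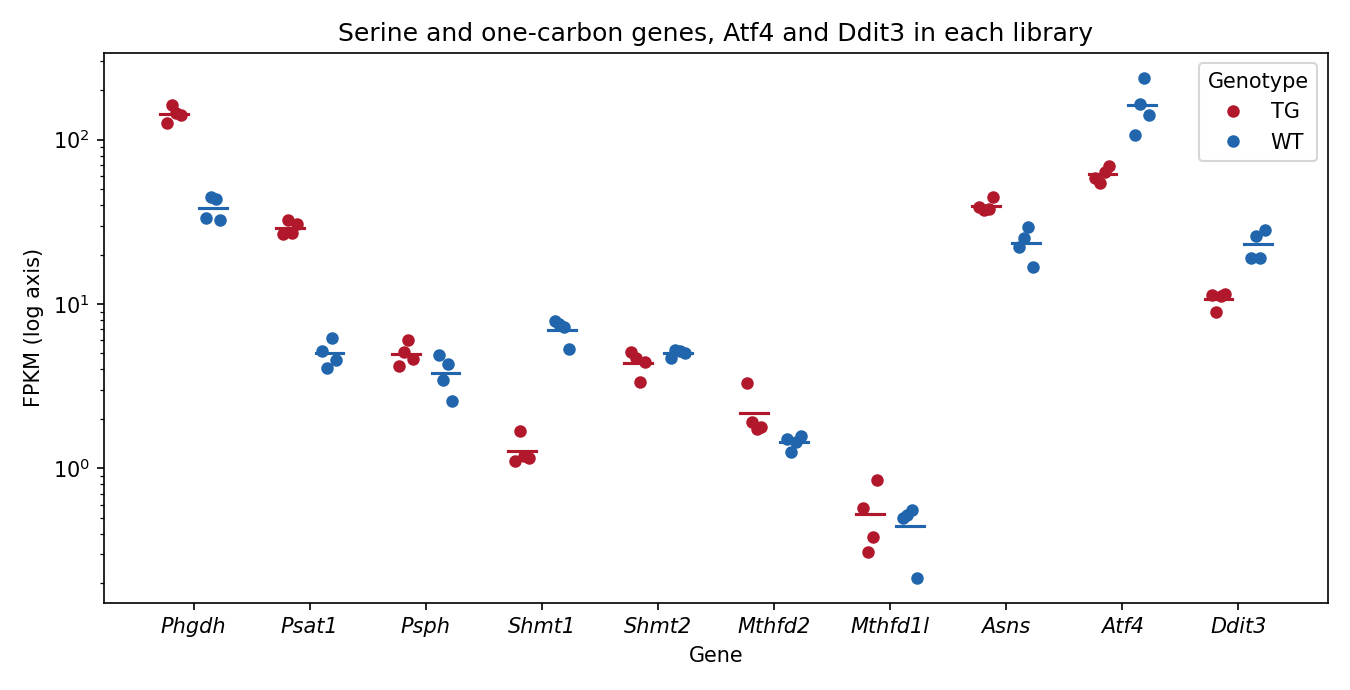
FPKM of the 10 genes (horizontal axis) in each library on a log axis, with TG in red to the left of WT in blue; points are libraries and bars are group means (n = 4 each). Phgdh, Psat1 and Asns lie higher in all 4 TG libraries, and Shmt1, Atf4 and Ddit3 lie lower.

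Phgdh encodes the enzyme of the first step of serine synthesis (ENSMUSG00000053398, chromosome 3, 98313170 to 98339990, minus strand, build mm10 per the submitters' processing notes). Phgdh stood at 126, 162, 145 and 142 FPKM in TG 1, 2, 3 and 5, against 33.3, 44.8, 43.7 and 32.4 FPKM in WT 1, 2, 3 and 5. Every TG library lay above every WT library, and the lowest TG value was well over the highest WT value. The group means were 144 ± 14.9 FPKM in TG and 38.6 ± 6.59 FPKM in WT (SD, n = 4 each), a 3.73-fold ratio and a log2 change of 1.88 (SE 0.140). Phgdh has 19 near-identical copies in the annotation (at least 90% identity over at least 200 bases), and the highest of them reached 3.09 FPKM in TG and 1.80 FPKM in WT, so how reads were shared with them is uncertain.

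Psat1 encodes the aminotransferase of the next step (ENSMUSG00000024640, chromosome 19, 15904678 to 15947337, minus strand). It had the largest ratio between the groups among the 10 genes. Psat1 stood at 26.6, 32.5, 26.9 and 30.7 FPKM in TG 1, 2, 3 and 5, against 5.15, 4.07, 6.22 and 4.56 FPKM in WT 1, 2, 3 and 5. The groups lay far apart, with a spread inside each group of a few FPKM. The means were 29.2 ± 2.91 FPKM in TG and 5.0003 ± 0.927 FPKM in WT (SD, n = 4 each), a 5.83-fold ratio and a log2 change of 2.34 (SE 0.130).

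Psph, whose product removes the phosphate in the last step of serine synthesis (ENSMUSG00000029446, chromosome 5, 129765558 to 129787449, minus strand), differed less between the groups than Phgdh and Psat1. Psph stood at 4.19, 5.09, 6.04 and 4.66 FPKM in TG 1, 2, 3 and 5, against 4.90, 3.43, 4.29 and 2.56 FPKM in WT 1, 2, 3 and 5. The groups overlapped, TG 1 and TG 5 lying below WT 1. The log2 change was 0.34 (SE 0.168), and it was 0.20 without WT 5. Psph shares 452 bases with Cct6a on the other strand, and since the strand setting of the counting is not given, reads of both cannot be told apart there. Within a library, the ratio of Phgdh to Psph FPKM was 24.0 to 31.9 in TG and 6.80 to 13.05 in WT.

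Asns makes asparagine from aspartate and is a much used marker of ATF4 activity (ENSMUSG00000029752, chromosome 6, 7675169 to 7693254, minus strand). Asns stood at 39.0, 37.3, 37.8 and 44.9 FPKM in TG 1, 2, 3 and 5, against 22.1, 25.2, 29.4 and 16.8 FPKM in WT 1, 2, 3 and 5. All TG libraries lay above all WT libraries, with a smaller distance than for Phgdh and Psat1. The means were 39.7 ± 3.52 FPKM in TG and 23.4 ± 5.29 FPKM in WT (SD, n = 4 each), a 1.70-fold ratio and a log2 change of 0.76 (SE 0.159).

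The stretches of 120 bases before the RefSeq start of these higher genes (build GRCm38.p6, minus strand in each case) are shown because ATF4 with its C/EBP partners binds a short element, searched here as TGATGNAAN on both strands. Capitals mark a match. The coordinates are chr3:98339970-98340089 for Phgdh, chr19:15925060-15925179 and chr19:15924623-15924742 for the 2 starts of Psat1, and chr6:7693210-7693329 for Asns. Both Psat1 stretches lie inside the longer span of the gene in the deposited table. The Phgdh and Asns stretches overlap the ends of the deposited genes at 98339990 and 7693254. The match of Asns, 7693224 to 7693232, lies inside the deposited gene.
Phgdh: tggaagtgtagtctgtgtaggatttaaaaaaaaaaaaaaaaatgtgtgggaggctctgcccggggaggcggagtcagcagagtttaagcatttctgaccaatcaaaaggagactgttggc
Psat1, start 1: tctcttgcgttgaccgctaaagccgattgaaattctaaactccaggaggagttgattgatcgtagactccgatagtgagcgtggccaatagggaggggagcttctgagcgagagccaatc
Psat1, start 2: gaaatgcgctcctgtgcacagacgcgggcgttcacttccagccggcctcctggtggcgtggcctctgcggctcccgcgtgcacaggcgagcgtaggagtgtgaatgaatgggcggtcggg
Asns: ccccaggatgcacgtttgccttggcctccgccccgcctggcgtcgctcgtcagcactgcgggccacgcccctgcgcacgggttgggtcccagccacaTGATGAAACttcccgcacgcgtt
In the whole windows, 250 bases before to 50 after each start, the letters were found for Asns alone of the 10 genes. They were found for 1215 of 27025 genes with a window in the table, or 4.50%. Among the 37 other ATF4 targets with a window, 18 held them (48.6%). A match is a description of these letters only, and its absence from a window says nothing of binding by ATF4.

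The SHMT enzymes move a carbon from serine to folate and yield glycine, SHMT1 in the cytosol and SHMT2 in the mitochondrion. Shmt1 (ENSMUSG00000020534, chromosome 11, 60788104 to 60811718, minus strand) stood at 1.10, 1.68, 1.19 and 1.16 FPKM in TG 1, 2, 3 and 5, against 7.87, 7.52, 7.28 and 5.31 FPKM in WT 1, 2, 3 and 5. Every TG library lay far below every WT library. The means were 1.28 ± 0.266 FPKM in TG and 7.00 ± 1.15 FPKM in WT (SD, n = 4 each), so TG held 0.183 of the WT level, and the log2 change was -1.80 (SE 0.138). Shmt2 (ENSMUSG00000025403, chromosome 10, 127517123 to 127522444, minus strand) stood at 5.10, 4.71, 3.34 and 4.42 FPKM in TG 1, 2, 3 and 5, against 4.72, 5.26, 5.20 and 5.001 FPKM in WT 1, 2, 3 and 5. The groups overlapped, with TG 3 the lowest library. The log2 change of Shmt2 was -0.18 (SE 0.121), it was -0.075 without TG 3, and it turned to 0.18 with division by all recovered reads. The ratio of Shmt1 to Shmt2 FPKM within a library was 0.216 to 0.358 in TG and 1.06 to 1.67 in WT, so the cytosolic form was the lower of the pair in each TG library and the higher in each WT library. Smcr8 overlaps Shmt1 by 184 bases and Ndufa4l2 overlaps Shmt2 by 32 bases, both on the other strand.

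MTHFD2 and MTHFD1L carry the serine carbon to formate in the mitochondrion, and both genes were low in this tissue (Mthfd2: ENSMUSG00000005667, chromosome 6, 83305691 to 83325908, minus strand. Mthfd1l: ENSMUSG00000040675, chromosome 10, 3973118 to 4167081, plus strand). Mthfd2 stood at 3.31, 1.92, 1.73 and 1.78 FPKM in TG 1, 2, 3 and 5, against 1.51, 1.26, 1.45 and 1.58 FPKM in WT 1, 2, 3 and 5. The groups did not overlap, but TG 1 stood apart from the other TG libraries. The log2 change of Mthfd2 was 0.35 (SE 0.154), and it was 0.20 without TG 1. Mthfd1l stood at 0.577, 0.309, 0.385 and 0.856 FPKM in TG 1, 2, 3 and 5, against 0.498, 0.520, 0.560 and 0.217 FPKM in WT 1, 2, 3 and 5. Its groups overlapped, the log2 change was 0.07 (SE 0.141), and the value ran from -0.01 without WT 5 to 0.15 without TG 2. A Mthfd1l value rested on 11 to 87 reads and a Mthfd2 value on 59 to 275 reads.

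Atf4, the regulator, was lower in TG, where its known targets Phgdh, Psat1 and Asns were higher (ENSMUSG00000042406, chromosome 15, 80255184 to 80257541, plus strand). Atf4 stood at 58.4, 54.4, 63.6 and 69.2 FPKM in TG 1, 2, 3 and 5, against 106, 164, 237 and 141 FPKM in WT 1, 2, 3 and 5. All TG libraries lay below all WT libraries, and the WT libraries were spread widely, with WT 3 the highest and WT 1 the lowest. The means were 61.4 ± 6.40 FPKM in TG and 162 ± 55.3 FPKM in WT (SD, n = 4 each), so TG held 0.378 of the WT level, and the log2 change was -1.33 (SE 0.216). The table measures Atf4 RNA, and the amount of ATF4 protein was not measured.

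Ddit3 encodes CHOP, a partner of C/EBP factors that ATF4 induces under stress (ENSMUSG00000025408, chromosome 10, 127290774 to 127296288, plus strand). Ddit3 stood at 11.4, 8.93, 11.2 and 11.5 FPKM in TG 1, 2, 3 and 5, against 18.9, 25.8, 19.1 and 28.4 FPKM in WT 1, 2, 3 and 5. The groups did not overlap. The means were 10.8 ± 1.23 FPKM in TG and 23.03 ± 4.78 FPKM in WT (SD, n = 4 each), with a log2 change of -1.02 (SE 0.153). The log2 change was -0.61 with division by all recovered reads, over 1.5 times smaller. Mars, named after its values were seen, overlaps Ddit3 by 68 bases on the other strand, and Mars stood at 15.6 ± 1.11 FPKM in TG and 15.2 ± 1.82 FPKM in WT (limma adjusted p = 0.799).

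By level per length, the order in TG was Phgdh, Atf4, Asns, Psat1, Ddit3, Psph, Shmt2, Mthfd2, Shmt1 and Mthfd1l. Of these neighbours only Psph and Shmt2 overlapped in their TG libraries. In WT the order was Atf4, Phgdh, Asns, Ddit3, Shmt1, Shmt2, Psat1, Psph, Mthfd2 and Mthfd1l, and the neighbours Asns and Ddit3, Shmt2 and Psat1, and Psat1 and Psph overlapped. Phgdh was thus above Atf4 in each TG library and below it in each WT library. The ratio of Phgdh to Atf4 FPKM within a library was 2.05 to 2.98 in TG and 0.184 to 0.313 in WT. For Psat1 over Atf4 the ratio was 0.423 to 0.597 in TG and 0.0248 to 0.0484 in WT, and for Asns over Atf4 it was 0.594 to 0.685 in TG and 0.119 to 0.208 in WT. Such a ratio is untouched by any scaling that divides a whole library by 1 factor, which quantile normalisation does not do. Atf4 lay lower and Phgdh, Psat1 and Asns higher in every TG library, so their ratios to Atf4 had to separate the groups. These ratios are a description and add no support to the separate levels.

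**Figure D2:**
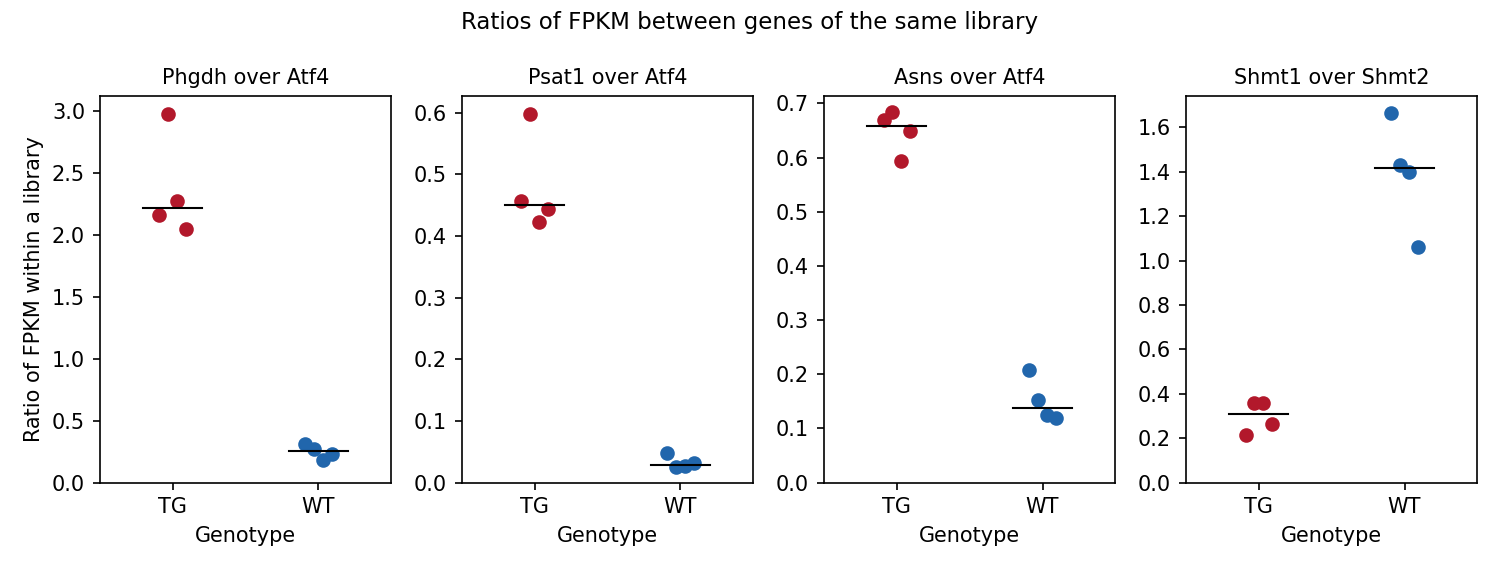
Ratio of FPKM between genes of the same library, with TG in red to the left of WT in blue; points are libraries, the line is the group median, and each panel has its own vertical axis starting at 0. The ratios to Atf4 lie higher in every TG library, as the separate levels of these genes require, and the ratio of Shmt1 to Shmt2 lies lower.

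The scaling of the libraries moved the size of these differences. Under 4 other scalings the log2 changes of Phgdh ranged from 1.96 to 2.30 and those of Psat1 from 2.40 to 2.72. The values of Asns ran from 0.84 to 1.18, those of Shmt1 from -1.82 to -1.50, those of Atf4 from -1.26 to -0.91 and those of Ddit3 from -0.94 to -0.61. For these 6 genes the sign was the same under every scaling. Division by all recovered reads gave 0.68 for Psph and 0.63 for Mthfd2, and the rescaling without abundant genes gave 0.50 and 0.51.

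**Figure D3:**
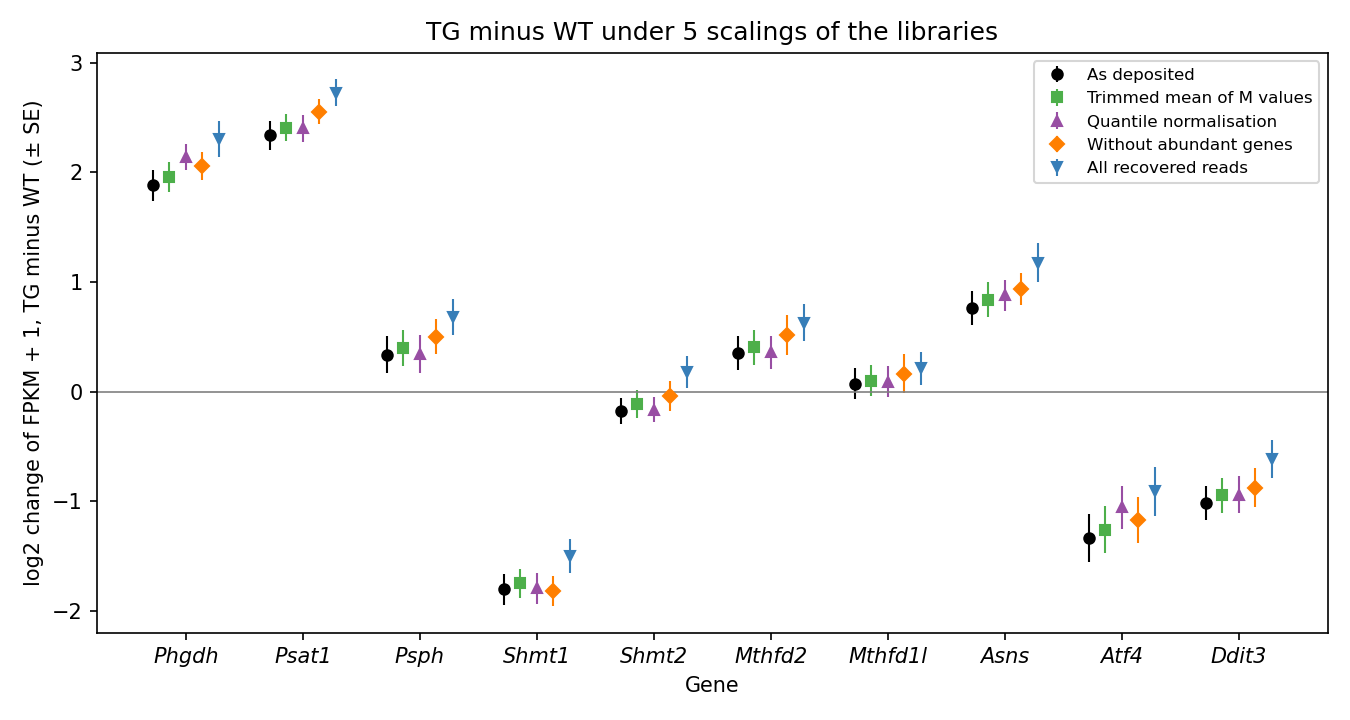
Log2 change of FPKM + 1, TG minus WT, for the 10 genes (horizontal axis) under 5 scalings of the libraries; points are the limma estimates and bars the standard error (n = 4 each). Phgdh, Psat1 and Asns lie above 0 and Shmt1, Atf4 and Ddit3 below 0 under all 5, while Shmt2 crosses 0 with division by all recovered reads.

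The genes around these 10 were tested across the whole table, in lists chosen with earlier results of these data known. Those named are mainly the 4 with the lowest p in each list, so their p-values describe them only. Of 32 other genes of folate and glycine metabolism 23 were tested, of which 7 rose, 4 fell and 12 did not pass (47.8% called, beside 44.1% of all tested genes; median log2 change 0.15). Without TG 2, TG 3 or TG 5, 4 rose. Aldh1l1, a cytosolic enzyme that oxidises formyl folate, had 72.8, 87.8, 82.7 and 63.9 FPKM in TG 1, 2, 3 and 5, against 12.9, 10.5, 10.2 and 13.6 FPKM in WT 1, 2, 3 and 5 (log2 change 2.60, SE 0.136, limma adjusted p = 1.87e-06). All TG libraries were the higher ones. Sfxn1, which carries serine into mitochondria, averaged 26.8 ± 3.44 FPKM in TG and 11.2 ± 1.15 FPKM in WT (SD, n = 4 each; log2 change 1.18, limma adjusted p = 5.80e-05). Sdsl, related to serine dehydratase, which breaks serine down, fell to 3.11 ± 1.15 FPKM in TG, against 20.4 ± 2.11 FPKM in WT (log2 change -2.42, limma adjusted p = 1.21e-05).

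The glycine cleavage system of mitochondria, which passes a carbon of glycine to folate, was split. Gldc, its decarboxylase, rose to 3.004 ± 0.517 FPKM in TG, against 0.376 ± 0.179 FPKM in WT (log2 change 1.54, limma adjusted p = 2.63e-05). Gldc reached the filter in the 4 TG libraries and, of the WT libraries, in WT 3 alone, so it entered the test through the TG libraries. Gcsh, the carrier protein of the system, and Dld, its dehydrogenase shared with other complexes, fell by 0.99 and 1.03 on the log2 scale (adjusted p = 6.71e-05 and 0.00187). Amt, the aminomethyl transferase of the system, stood at 0.529 ± 0.129 FPKM in TG and 0.619 ± 0.257 FPKM in WT (limma adjusted p = 0.678). Amt reached the filter in 5 of the 8 libraries and rested on 15 to 36 reads, which limits its precision. Gcsh, Dld and Amt were named after their values were seen, as were the next 4. Ggh, which trims folate chains, rose by a log2 change of 1.18. Slc46a1 and Slc19a1, carriers that take up folate, rose by 0.59 and 0.53, but their calls were lost under 6 and 9 of their 17 alternatives, with adjusted p values of up to 0.0738 and 0.118 and, over all alternatives, no lower than 0.00405 and 0.00513. Gcat, a glycine acetyltransferase, was the remaining gene that fell (-1.01). Mthfd1, the cytosolic counterpart of the mitochondrial MTHFD enzymes, averaged 6.59 ± 0.588 FPKM in TG and 4.92 ± 1.11 FPKM in WT (adjusted p = 0.0657), and it passed without WT 3 (0.0331) and under 4 other alternatives, its adjusted p running from 0.00311 to 0.159. Mthfd2l, the paralog of Mthfd2, averaged 3.32 ± 0.493 FPKM in TG and 2.31 ± 0.741 FPKM in WT (adjusted p = 0.0673), and without WT 1, its highest WT library, the adjusted p was 0.00661. It passed also under 4 other alternatives and ran from 0.00333 to 0.160 over the alternatives.

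The methionine cycle and the transsulfuration route, which leads from homocysteine and serine to cysteine, were listed together. Of their 20 genes 17 were tested, of which 4 rose, 4 fell and 9 did not pass. The 47.1% called lay near the 44.1% of all tested genes (median log2 change 0.07). Without WT 2 or WT 3, 2 fell. Gamt, which makes creatine with a methyl group, rose by 1.35 on the log2 scale (limma adjusted p = 1.49e-05), and Nnmt, which methylates nicotinamide, had 261 ± 41.7 FPKM in TG and 75.8 ± 18.4 FPKM in WT (SD, n = 4 each; log2 change 1.79, limma adjusted p = 8.32e-05). Cbs and Cth, which join serine to homocysteine and release cysteine, rose by 0.80 and 0.89 (adjusted p = 0.00141 and 0.00166) and were named after their values were seen. Cbs reached the filter in the 4 TG libraries alone, with 0.200 to 0.292 FPKM in WT, and Gnmt, counted among those that fell, reached it in the 4 WT libraries alone, so both entered the test only through the group where they were high. Cth reached the filter in the 4 TG libraries and, of the WT libraries, in WT 3 alone, so it too entered through the TG libraries. Ahcyl1, a relative of the hydrolase of the cycle, and Sms, spermine synthase, fell by 1.72 and 1.12 on the log2 scale (limma adjusted p = 7.48e-06 and 6.96e-05).

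Of 45 known ATF4 targets outside the 10 genes 40 were tested, of which 9 rose, 9 fell and 22 did not pass. The 45.0% called lay near the 44.1% of all tested genes (median log2 change -0.01, beside 0.01 over all tested genes). With division by all recovered reads 18 rose and 5 fell, and 5 fell without TG 2. Gpt2, a mitochondrial alanine aminotransferase, had 15.0, 14.8, 14.6 and 16.8 FPKM in TG 1, 2, 3 and 5, against 4.39, 5.14, 4.15 and 3.51 FPKM in WT 1, 2, 3 and 5 (log2 change 1.63, limma adjusted p = 7.38e-06). Chac1, which degrades glutathione, averaged 9.79 ± 0.670 FPKM in TG and 2.82 ± 1.38 FPKM in WT (SD, n = 4 each; 1.56, adjusted p = 0.000349). Slc1a5, a carrier of glutamine and serine, averaged 390 ± 57.4 FPKM in TG and 169 ± 36.9 FPKM in WT (1.22, adjusted p = 0.000434). Sesn2, an inhibitor of mTORC1 under amino acid shortage, rose by 1.26 (adjusted p = 0.00239) and was named after its value was seen.

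Of the ATF4 targets that fell, Pck2, the mitochondrial carboxykinase, averaged 1.75 ± 0.219 FPKM in TG and 4.33 ± 1.13 FPKM in WT (log2 change -0.93, limma adjusted p = 0.00104). The others in this paragraph were named after their values were seen. Atf3 stood at 2.45, 1.01, 1.26 and 2.98 FPKM in TG 1, 2, 3 and 5, against 7.88, 12.7, 44.5 and 31.4 FPKM in WT 1, 2, 3 and 5 (-2.87, adjusted p = 0.00110). WT 3 was the highest library for Atf3, as for Atf4, Cebpb and Gdf15. Among the 10 genes, WT 3 was also the highest WT library for Psat1 and Asns, which were higher in TG. Ddit3, which was lower in TG, was highest in WT 5. Cebpb, a partner of ATF4, fell to 128 ± 18.6 FPKM in TG, against 416 ± 226 FPKM in WT (-1.56, adjusted p = 0.00331). Trib3, a pseudokinase that feeds back on ATF4, fell by 0.62 (adjusted p = 0.00685), a call that division by all recovered reads ended (adjusted p = 0.107; range over its alternatives 0.00507 to 0.107). Gdf15, a secreted factor of mitochondrial stress, had a log2 change of -1.48 (limma adjusted p = 0.0293), which ran from -3.11 to -0.99 over its alternatives. Without TG 1, TG 2, TG 3 or WT 2 and with no filter its call was lost, with adjusted p values up to 0.0905. The searched letters were found in 4 of 7 risen and 5 of 9 fallen targets with a window, and in 6 of 16 that did not pass. Fgf21, another such factor, was among the 5 targets under the filter.

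Upstream of Atf4, kinases phosphorylate the factor eIF2, which slows translation in general and favours that of ATF4. All 19 genes listed for these kinases and for eIF2 regulation were tested, of which 5 rose, 2 fell and 12 did not pass. The 36.8% called lay below the 44.1% of all tested genes (median log2 change 0.05). Without TG 1, TG 5 or WT 2, 1 fell, and without WT 5, 4 fell. Eif2ak3, which encodes the endoplasmic reticulum kinase PERK, stood at 1.95, 2.26, 2.32 and 2.16 FPKM in TG 1, 2, 3 and 5, against 1.10, 0.876, 1.34 and 0.609 FPKM in WT 1, 2, 3 and 5 (log2 change 0.69, SE 0.130, limma adjusted p = 0.00211). Eif2ak1, the haem-regulated kinase, had a log2 change of 0.51 (adjusted p = 0.0327), a call lost without any 1 of the TG libraries, without WT 2 and with no filter (adjusted p up to 0.0819). Eif2ak4, which encodes the amino acid sensor GCN2, averaged 1.05 ± 0.0919 FPKM in TG and 0.899 ± 0.270 FPKM in WT (adjusted p = 0.464; 0.0368 with division by all recovered reads, the lowest over its alternatives, which reached 0.807). Eif2ak2, the kinase PKR, averaged 3.22 ± 0.346 FPKM in TG and 3.14 ± 0.861 FPKM in WT (adjusted p = 0.823). Impact, an inhibitor of GCN2, and Dnajc3, an inhibitor of PERK and PKR, rose by 0.79 and 0.82 on the log2 scale (adjusted p = 0.000449 and 0.000619), and Eif2b4, a subunit of the exchange factor of eIF2, fell to 11.7 ± 1.73 FPKM in TG, against 23.8 ± 1.42 FPKM in WT (-0.98, adjusted p = 0.000145). These are RNA levels, and kinase activity was not measured.

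Among 22 genes whose products use serine, glycine or folate carbon 18 were tested, of which 6 rose, 2 fell and 10 did not pass. The 44.4% called lay near the 44.1% of all tested genes (median log2 change -0.01). Without TG 1, TG 3, TG 5, WT 1 or WT 3, 1 fell. Ptdss1, which makes phosphatidylserine, averaged 14.1 ± 0.731 FPKM in TG and 7.20 ± 0.677 FPKM in WT (SD, n = 4 each; log2 change 0.88, limma adjusted p = 9.88e-05). Sptlc1, a subunit of the enzyme that starts sphingolipid synthesis from serine, rose by 0.64 on the log2 scale (limma adjusted p = 0.000982). Atic, which uses formyl folate in purine synthesis, also rose by 0.64 (0.00173), and Alas1, which uses glycine in haem synthesis, rose by 0.80 (0.00320).

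**Figure D4:**
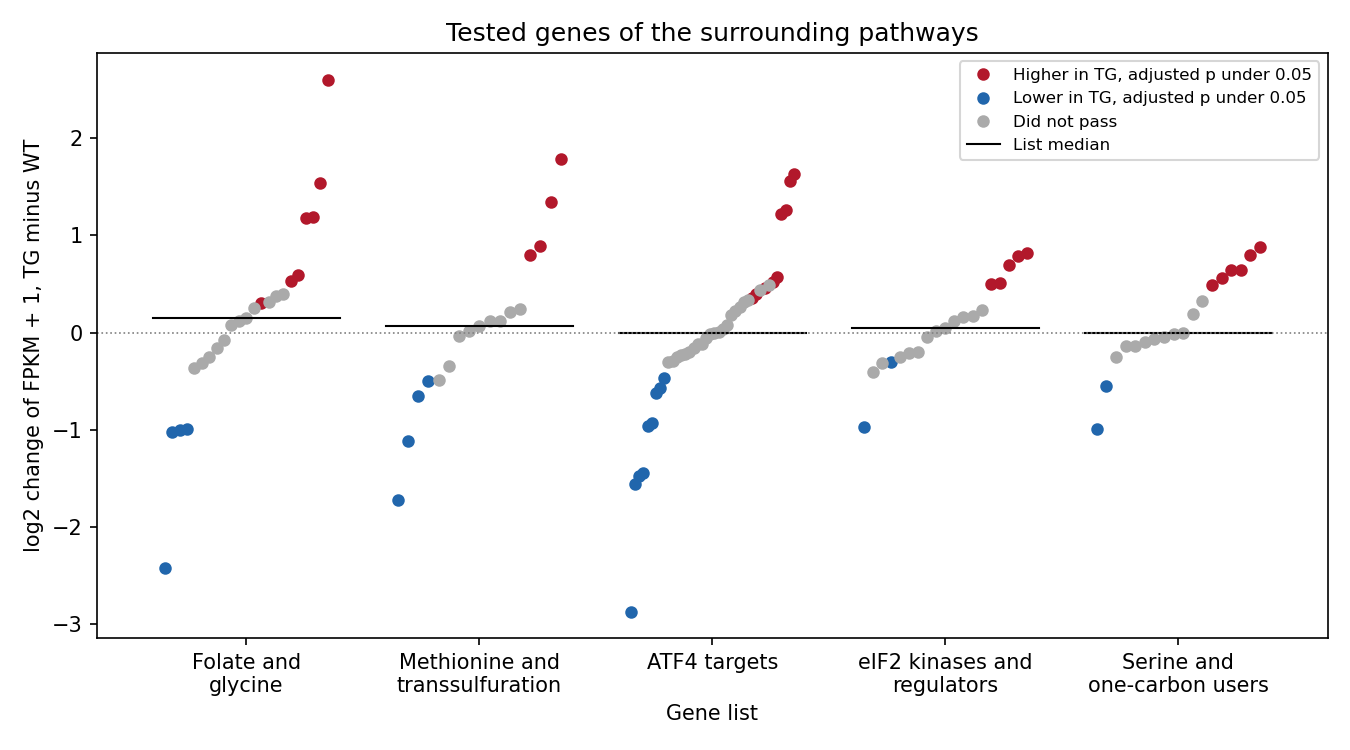
Log2 change of FPKM + 1, TG minus WT, of each tested gene in 5 lists (horizontal axis, genes in order of their change); red and blue points passed a limma adjusted p of 0.05 as higher and lower in TG, grey points did not, and the line is the list median. Each list holds genes that rose and genes that fell, with medians between -0.01 and 0.15.

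The tested genes most like 3 of the 10 in profile were taken by the smallest root-mean-square difference between centred log2(FPKM + 1) profiles over the 8 libraries, among 10789 tested protein-coding genes, without those bearing only a Gm or Rik name. For Phgdh these were Car3, a carbonic anhydrase of adipose tissue and muscle (0.139), Nnmt (0.153) and Dram1 (0.154). Those nearest to Atf4 were Hdc, which makes histamine (0.124), the cytoskeletal actin gene Actg1 (0.146) and the kinase gene Stk38l (0.148). Hdc was low, at 0.280 ± 0.143 FPKM in TG, under the filter of 0.5 FPKM, and 2.05 ± 0.995 FPKM in WT (mean ± SD). Mthfd2 had Gigyf1 (0.117), Cpox of haem synthesis (0.119) and Itih5 (0.119) as its nearest genes. These distances in log2 units include the difference between the groups and are given as a description.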

How the data were processed

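Brown adipose tissue RNA of 4 TG and 4 WT mice was made into libraries with a TruSeq kit (1 ug of RNA each), per the labels' protocols. The submitters' processing notes name bcl2fastq, HISAT2 2.0.5, featureCounts 1.5.0-p3 and build mm10. For the annotation release, the strand setting and the divisor, the sources used here give nothing. The authors deposited FPKM for 54532 genes. In each library, FPKM times gene length was divided by its smallest positive value, taken as 1 read. This gave whole reads for 100% of values (tolerance 0.001), and these recovered reads served for depth, other scalings and voom.

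The 12508 genes that reached 0.5 FPKM in 4 or more libraries were tested with limma 3.58.1 (R 4.3.3; log2(FPKM + 1), eBayes with trend, no covariates, two-sided) with Benjamini-Hochberg adjustment over all of them at 0.05. With 4 mice in each group, the p-values rest on the variation between mice. The procedure was tested on simulated data. Alternatives were other pseudocounts, filters and scalings, voom on the recovered reads (2947 higher and 2747 lower genes called), a replicate block and each library left out. The 10 genes, the lists and the marker lists were chosen with earlier results of these data known. The genes named outside the 10 are the 4 with the lowest p in each list, the paralogs Mthfd1 and Mthfd2l, the 4 eIF2 kinases and the 3 nearest profiles of Phgdh, Mthfd2 and Atf4, beside those said to be named later. Gnmt, Fgf21, Eif2b5, Ppp1r15a and Gss were named outside this rule, for the filter, a flagged library or a change of sign. Clcf1, markers and overlapping genes are named apart from it. Near-identical copies were sought with blastn 2.17.0 among GENCODE M21 transcripts, whose coordinates for the 10 genes equal those of the table. Promoter sequences are from RefSeq (GRCm38.p6), where all 10 genes matched. Figures were drawn with matplotlib 3.10.9.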

Additional observations from a re-analysis of the deposited data

Results flagged for a closer look

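In 11 of 140 groups of 4 libraries, counted over 70 genes, 1 library stood far from the other 3 by Dixon's criterion, which chance meets in about 1 in 20 groups. Among the 10 genes, Shmt1 was 1.68 FPKM in TG 2 and 1.10 to 1.19 FPKM in the other TG libraries, and Mthfd2 was 3.31 FPKM in TG 1 and 1.73 to 1.92 FPKM in the others. Ddit3 was lowest in TG 2, with 8.93 FPKM beside 11.2 to 11.5 FPKM.

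In the surrounding lists, Ggh was 36.3 FPKM in TG 1 (42.2 to 43.2 FPKM in the other TG libraries), Pck2 was 2.08 FPKM in TG 1 (1.63 to 1.65) and Eif2ak2 was 3.74 FPKM in TG 2 (3.04 to 3.06). Among WT libraries, WT 1 stood high for Mthfd2l with 3.42 FPKM (1.87 to 1.998 in the others) and for Eif2b5 with 30.8 FPKM (28.1 to 28.5). WT 3 stood high for Cth with 1.05 FPKM (0.426 to 0.479), Ppp1r15a with 15.8 FPKM (5.14 to 6.45) and Gss with 16.05 FPKM (7.47 to 8.32).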

How the results depend on the processing

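Phgdh, Psat1, Asns, Shmt1, Atf4 and Ddit3 kept their direction under every alternative, and, as a description, 3 of the 10 genes lay past the threshold as higher and 3 as lower except with the rescaling without abundant genes and with division by all recovered reads, with 5 and 5 higher. Called genes over the table numbered 1445 higher and 1703 lower with a filter at 5 FPKM, and 5536 higher and 1442 lower with division by all recovered reads (3790 and 2150 with the rescaling). With division by all recovered reads the calls were 11 higher in the folate list, 8 higher in the methionine list, 18 higher and 5 lower among ATF4 targets, 10 higher and 1 lower in the eIF2 list, 1 lower among users of serine and 2 higher among cycling genes. With the filter at 5 FPKM they were 3 higher in the folate list, 2 higher and 2 lower in the methionine list and 0 among cycling genes, where the stricter filter tests fewer genes. With no filter 5 ATF4 targets and 1 user of serine fell. The eIF2 list had 1 lower call with the trimmed mean of M values, quantile normalisation, the rescaling and the replicate block. Eif2b5 turned to 0.11 with division by all recovered reads. The cause was not tested.

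Leaving out 1 library gave 2119 to 2724 higher and 2288 to 2662 lower genes over the table, 3 higher and 3 lower among the 10 genes, 4 to 7 higher and 4 to 5 lower in the folate list (4 higher without TG 2, TG 3 or TG 5), 3 to 4 higher and 2 to 5 lower in the methionine list (2 lower without WT 2 or WT 3), 7 to 9 higher and 5 to 10 lower among ATF4 targets (5 lower without TG 2), 4 to 5 higher and 1 to 4 lower in the eIF2 list (1 without TG 1, TG 5 or WT 2, 4 without WT 5), 5 to 7 higher and 1 to 2 lower among users of serine (1 lower without TG 1, TG 3, TG 5, WT 1 or WT 3) and 1 higher among cycling genes. Of 53 called genes of the lists 37 kept their call in all alternatives in which they were tested. Cbs and Gnmt, counted among these, were tested in 13 alternatives, against 18 for genes tested in each. Mice of the same number did not deviate together (correlations -0.19, -0.17, 0.04 and -0.24), and they were treated as unpaired. These correlations cannot show whether mice of the same number shared anything beyond it. The replicate block called 2389 higher and 2458 lower genes. Mthfd1l had no value without TG 1, TG 5, WT 2 or WT 3, the only libraries where it reached 0.5 FPKM. Its low read numbers, 11 to 87, limit its precision.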
